A study of Homo sapiens with 15 samples.

Results

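Genes of the integrated stress response were followed through 15 RNA-sequencing libraries made from HCC1954 cells, an established human line from a breast tumour that carries extra HER2. The list held 48 genes: stress regulators, secreted stress factors, and enzymes and tRNA synthetases known as targets of the transcription factor ATF4. A gene counted as a member when its normalized count was at least 10 in 3 or more libraries, and 43 of the 48 did. ATF5, FGF21, ALDH1L2 and HMGCLL1 had a row but stayed below that level, and VLDLR-AS1 was not analysed here because no row carried its name. The 43 members are part of 19843 gene rows. The groups were the parental line (Pa, 3 libraries) and cells of the same line that the labels call brain-tropic: synchronous metastatic cells (S-BM, 4), latent or residual cells (Lat, 4) and metachronous metastatic cells (M-BM, 4). All groups were cultured overnight in R3F medium before RNA was taken, so no library holds RNA from tissue. The labels name no treatment and do not tell what separates the libraries within a group (culture, clone or animal). The p-values therefore measure the spread between samples that may differ by technique alone.

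In the integrated stress response, kinases that sense amino acid shortage, protein misfolding, viral RNA or haem deficiency phosphorylate the translation factor eIF2. General protein synthesis then falls, while the mRNA of ATF4 is translated more. ATF4 pairs with C/EBP proteins and binds short elements near genes for amino acid synthesis, amino acid import and tRNA charging. In cancer cells this programme is known for meeting the demand for amino acids, and for cell death genes that it induces when stress lasts. The activity of ATF4 is set largely by translation, which mRNA levels do not measure.

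The element that ATF4 and C/EBP proteins share has the core TGATGNAA, where N is any base. It was searched on both strands of RefSeq promoter windows (GRCh38.p14), each running from 250 bases before to 50 bases after a gene's start site. Of the 43 members, 36 had such a window, and 13 of these 36 (36.1%) held the core. Of all 27305 genes with a window, 1217 (4.46%) did. The members were listed for their known link to ATF4, so this is a description. It was found in 7 of 11 genes of tRNA charging and export, 4 of 13 stress regulators, 1 of 6 serine and one-carbon enzymes, 1 of 4 other enzymes and neither of the 2 secreted factors. A match is a string of letters and not a measured binding site, and windows without a match say nothing about ATF4. The stretches below show the matches in 12 members, 5′ to 3′ on the strand of the gene, with the core in capitals. TTNCATCA is the same core read on the opposite strand.
CHAC1 (chr15:40953252-40953279, plus strand): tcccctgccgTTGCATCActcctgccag
ATF3 (chr1:212565206-212565233, plus strand): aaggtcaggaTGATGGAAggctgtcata
CEBPG (chr19:33374061-33374088, plus strand): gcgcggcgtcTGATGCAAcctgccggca
JDP2 (chr14:75427996-75428023, plus strand): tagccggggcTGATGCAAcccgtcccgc
ASNS (chr7:97872459-97872486, minus strand): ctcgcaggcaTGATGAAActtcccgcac
AARS (chr16:70289676-70289703, minus strand): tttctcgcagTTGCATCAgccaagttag
CARS (chr11:3057408-3057435, minus strand): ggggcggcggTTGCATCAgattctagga
GARS (chr7:30594835-30594862, plus strand): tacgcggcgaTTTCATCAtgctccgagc
IARS (chr9:92293693-92293720, minus strand): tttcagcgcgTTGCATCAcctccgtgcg
MARS (chr12:57488054-57488081, plus strand): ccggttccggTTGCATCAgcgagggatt
NARS (chr18:57621805-57621832, minus strand): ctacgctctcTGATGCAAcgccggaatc
TARS (chr5:33440957-33440984, plus strand): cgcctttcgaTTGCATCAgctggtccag

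In these stretches TGATGCAA or its reverse TTGCATCA stands in CHAC1, CEBPG, JDP2, AARS, CARS, IARS, MARS, NARS and TARS. ATF3 holds TGATGGAA, ASNS TGATGAAA and GARS TTTCATCA. The match begins 209 bases before the start site in CHAC1, 187 before it in AARS and 68 before it in ASNS, but 2 bases before it in CARS and 4 before it in MARS. The 250 bases before the start site are shown for CHAC1, ASNS and AARS, which stand for a stress regulator, an amino acid enzyme and a tRNA synthetase.
CHAC1 (chr15:40953221-40953470, plus strand): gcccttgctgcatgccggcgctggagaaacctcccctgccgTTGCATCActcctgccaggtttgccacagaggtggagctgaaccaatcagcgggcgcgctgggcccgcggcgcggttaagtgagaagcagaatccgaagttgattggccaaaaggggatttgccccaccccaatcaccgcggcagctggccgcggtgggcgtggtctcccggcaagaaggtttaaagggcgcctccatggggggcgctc
ASNS (chr7:97872409-97872658, minus strand): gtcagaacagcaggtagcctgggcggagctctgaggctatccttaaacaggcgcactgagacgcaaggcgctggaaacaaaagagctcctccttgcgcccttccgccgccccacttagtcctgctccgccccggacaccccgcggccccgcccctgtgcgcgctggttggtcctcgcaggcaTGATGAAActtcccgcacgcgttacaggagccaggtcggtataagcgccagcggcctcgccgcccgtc
AARS (chr16:70289507-70289756, minus strand): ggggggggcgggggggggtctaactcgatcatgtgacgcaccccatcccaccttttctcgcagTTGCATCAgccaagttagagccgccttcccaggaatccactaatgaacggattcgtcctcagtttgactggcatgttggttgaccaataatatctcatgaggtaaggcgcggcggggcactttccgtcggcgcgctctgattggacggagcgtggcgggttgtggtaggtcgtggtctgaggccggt

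Recovered from the deposited values, reads in genes came to between 13.25 M and 21.84 M per library. The 7 markers of the labelled breast epithelial line had a summed level of 5900.5 to 10272 in S-BM, 6334 to 7646 in Lat, 6402 to 8301 in M-BM and 11334 to 12061 in Pa. The sum hides differences: KRT8 was at 999 to 1157 in S-BM, 486 to 597 in Lat and 425 to 676 in M-BM. KRT7 and CDH1 were also lower in Lat and M-BM than in S-BM with no overlap. KRT18 was so in Lat only, and EPCAM and KRT19 overlapped. ERBB2, the HER2 gene, was at 353 in S-BM 3 and 367 in S-BM 4, against 4109 and 4642 in the other S-BM libraries and 2801 or more in every library of the other groups. These 2 low-ERBB2 libraries thus stand apart from their group in the gene that marks the line, and members whose call changes without them are given below. SLC1A3, a glutamate transporter counted among astrocyte markers, made up nearly all of that list's sum, which was 313 to 425 in Pa, 173 to 325 in S-BM, 36.7 to 49.0 in Lat and 32.0 to 79.6 in M-BM. Of 18 measured markers of brain, immune, endothelial and stromal cells, 9 were under 1 in every library: GFAP, ALDH1L1, MOG, SNAP25, PTPRC, AIF1, CX3CR1, COL3A1 and PDGFRB. Of the other 9, MBP was at 75.5 to 150.5, CD68 at 8.64 to 30.9, COL1A1 at 3.25 to 20.7 and CDH5 at 1.17 to 17.7, while PECAM1, OLIG2, SYT1 and VWF stayed at 11.2 or less. OLIG2 was at 4.14 to 5.16 in Lat and 2.66 to 5.16 in M-BM, against 1.4996 or less in S-BM. The part of these markers in the stress genes was not tested. The closest pairs were S-BM 3 and S-BM 4 (2.28 times the counting noise) and Lat 1 and Lat 2 (2.8 times), against 12.7 to 26.0 times for the other S-BM pairs. No pair agreed within the noise, and each library was counted. If a close pair came from a single culture, the p-values are too small. Pa stands in a table of its own that was normalized separately, so its values are set beside the others as levels with no test.

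Lat cells were compared with S-BM cells, and M-BM cells with S-BM cells, to see how the stress response genes differed between the brain-derived groups. Both comparisons use the same S-BM libraries. Most stress regulators and tRNA synthetases were higher in Lat and in M-BM, whereas most serine and one-carbon enzymes did not pass the test. A gene was called at an adjusted p under 0.05 (limma on log2(value + 1), adjusted over all 9646 genes tested), and all 43 members were tested. In Lat against S-BM 22 members were higher (51.2% of 43) and 4 lower, where 30.2% of all genes tested were higher and 29.4% lower (59.7% in all). In M-BM against S-BM 26 members were higher (60.5%) and 3 lower, where 26.9% and 25.8% of all genes were (52.7% in all). The groups did not overlap, Lat or M-BM being higher, for 22 members in Lat (26.9% of all genes) and 20 in M-BM (23.5%), and lower for 3 (27.6%) and 2 (22.8%). Over both directions, 54.5% of all genes did not overlap in Lat and 46.2% in M-BM. Called changes of 2-fold or more numbered 5 members in Lat (13.4% of all genes) and 6 in M-BM (9.76%). The median log2 fold change of the members was 0.33 in Lat and 0.43 in M-BM, where that of all genes tested was 0.01 and 0.01. The excess of members over the background lay on the higher side. In bulk RNA, fewer cells with a gene on and less of its RNA per cell cannot be told apart. Without the low-ERBB2 libraries, 19 members were higher and 6 lower in Lat, and 21 were higher and 5 lower in M-BM. The shares of all genes called in that fit were not determined, and the shares above belong to the fit of all libraries.

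**Figure D1:**
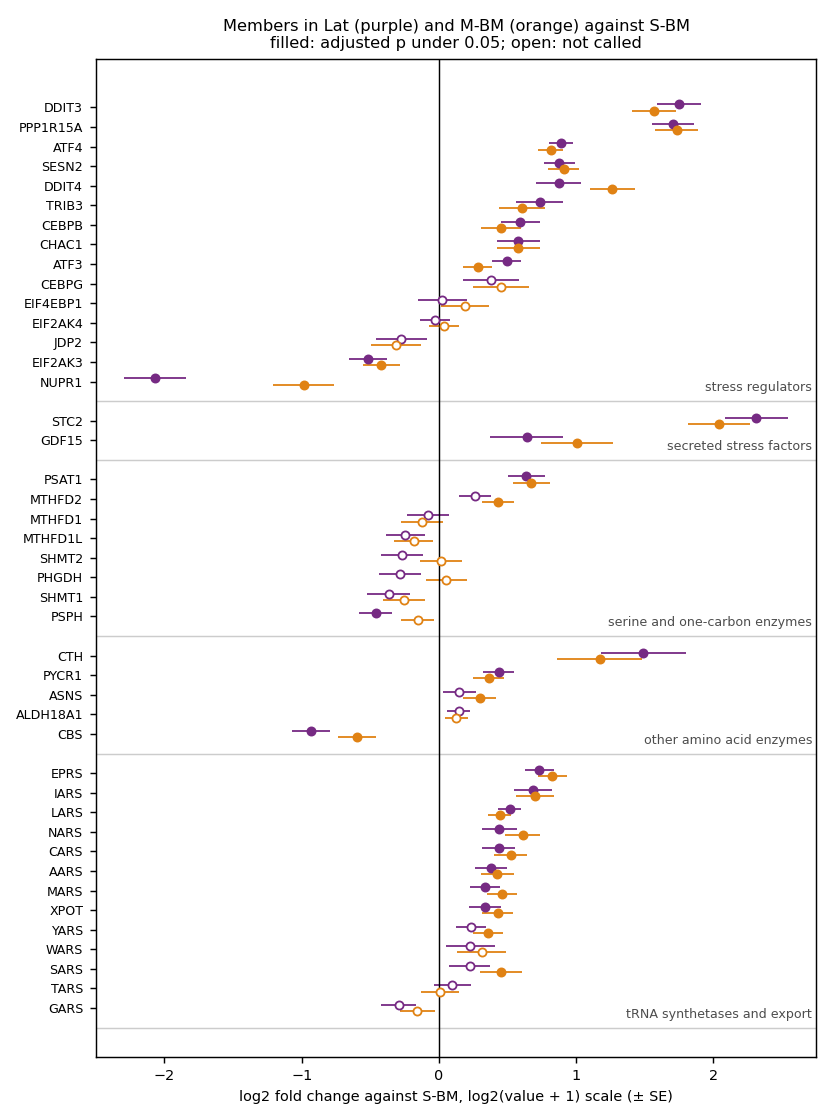
Log2 fold change of each of the 43 members in Lat (purple) and M-BM (orange) against S-BM, on the log2(value + 1) scale with SE, grouped by role. Filled points passed an adjusted p of 0.05 and open points did not. STC2, DDIT3 and PPP1R15A lie farthest to the right, NUPR1 farthest to the left, and the serine and one-carbon enzymes lie on both sides of 0, from PSPH at -0.46 in Lat to PSAT1 at 0.67 in M-BM.

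Of the sensor kinases, EIF2AK3 and EIF2AK4 are members, and neither was called higher. EIF2AK3 encodes PERK, the kinase that responds to misfolded protein in the endoplasmic reticulum. It stood at 60.5, 62.2, 45.1 and 46.9 in S-BM 1 to 4, at 38.7, 38.2, 33.8 and 36.9 in Lat 1 to 4, and at 34.3, 34.5, 41.4 and 49.3 in M-BM 1 to 4. All Lat libraries lay below all S-BM libraries, while M-BM 4 lay within the S-BM range. EIF2AK3 fell by 0.52 on the log2 scale in Lat (SE 0.14, limma adjusted p = 0.00458) and by 0.42 in M-BM (SE 0.14, limma adjusted p = 0.0174). In M-BM it no longer passed once S-BM 1 (0.053), S-BM 2 (0.0508), M-BM 1 (0.0533) or M-BM 2 (0.0523) was omitted. Pa was higher still, at 77.7, 69.0 and 72.2.

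EIF2AK4 encodes GCN2, the kinase that senses uncharged tRNA. Its values were 93.4, 93.1, 103 and 103 in S-BM, 89.9, 97.0, 107 and 89.9 in Lat, and 105, 80.0, 113 and 107 in M-BM, so the groups overlapped. The log2 fold change against S-BM was -0.03 in Lat (95% interval -0.27 to 0.20, limma adjusted p = 0.819) and 0.04 in M-BM (-0.20 to 0.27, limma adjusted p = 0.791).

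ATF4 itself stood at 313, 274, 315 and 344 in S-BM 1 to 4, at 566, 535, 602 and 607 in Lat 1 to 4, and at 542, 579, 567 and 502 in M-BM 1 to 4. Every Lat and M-BM library was above every S-BM library, and all of these were above Pa (245, 232 and 238). ATF4 rose 1.85-fold in Lat (log2 fold change 0.89, SE 0.09, limma adjusted p = 2.66e-06) and 1.76-fold in M-BM (0.81, SE 0.09, limma adjusted p = 1.09e-05). The gene lies on chromosome 22 (39520559 to 39522686, GRCh38).

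DDIT3 encodes CHOP, a transcription factor that ATF4 induces and that promotes death under lasting stress. It was at 23.1, 13.8, 17.5 and 13.8 in S-BM, 54.4, 49.6, 76.5 and 56.8 in Lat, and 47.1, 54.1, 55.8 and 49.5 in M-BM. The lowest Lat or M-BM library was above 2 times the highest S-BM library, and Pa was lower than S-BM (13.1, 11.9 and 11.9). DDIT3 rose 3.37-fold in Lat (log2 fold change 1.75, SE 0.16, limma adjusted p = 1.37e-06) and 2.97-fold in M-BM (1.57, SE 0.16, limma adjusted p = 6.9e-06). Its exons share 62 bases with those of MARS on the opposite strand, or 4.74% of its exonic length, and the library kit does not mark strand. MARS, at a mean of 318 in S-BM and 401 in Lat, was itself higher, and its part in the DDIT3 values was not tested.

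PPP1R15A encodes GADD34, the phosphatase subunit that removes the phosphate from eIF2 and so closes the feedback loop. Its values were 153, 92.3, 128 and 152 in S-BM, 448, 408, 447 and 389.9 in Lat, and 451, 505, 440.1 and 341 in M-BM. The groups were far apart, and Pa stood at 69.9, 66.5 and 65.3. PPP1R15A rose 3.26-fold in Lat (log2 fold change 1.71, SE 0.16, limma adjusted p = 1.22e-06) and 3.32-fold in M-BM (1.73, SE 0.16, limma adjusted p = 2.74e-06).

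**Figure D2:**
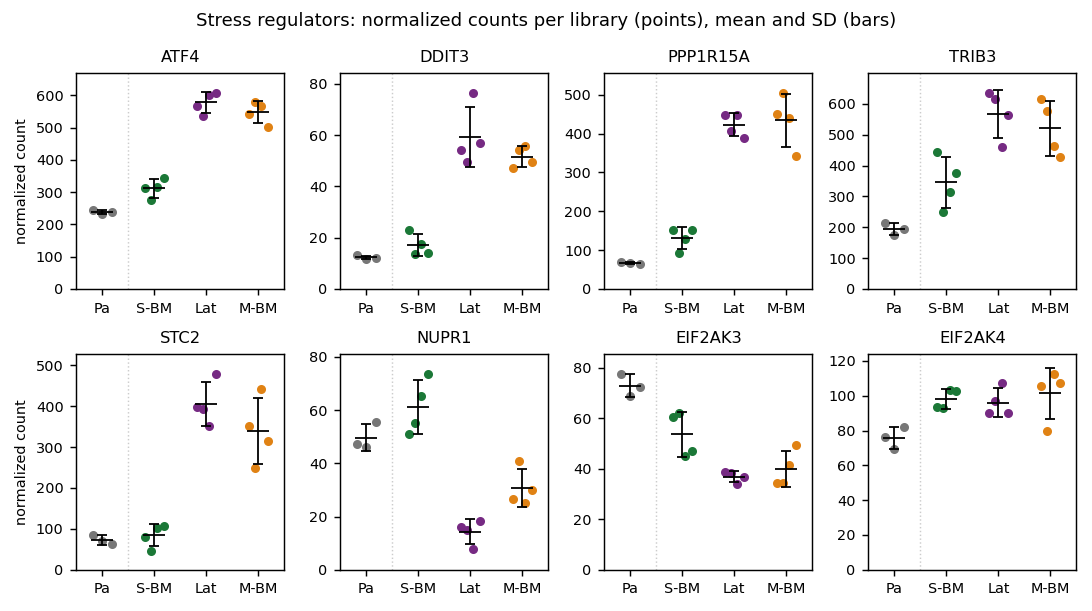
Normalized counts of 8 stress genes in Pa, S-BM, Lat and M-BM, each point 1 library, bars the mean and SD, and a dotted line marking that Pa comes from a separately normalized table. ATF4, DDIT3, PPP1R15A and STC2 show Lat and M-BM above all S-BM and Pa libraries, NUPR1 and EIF2AK3 run the other way, and EIF2AK4 overlaps between S-BM, Lat and M-BM.

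Among all genes tested, 30.2% were higher and 29.4% lower in Lat, and 26.9% and 25.8% in M-BM. Of the 15 stress regulators that were members, 9 were higher and 2 lower in Lat, and 9 were higher and 2 lower in M-BM. Besides ATF4, DDIT3 and PPP1R15A, the higher ones were ATF3, CEBPB, TRIB3, DDIT4, SESN2 and CHAC1. DDIT4, an inhibitor of the growth kinase mTORC1 also known as REDD1, stood at 168, 156, 214 and 234 in S-BM. In Lat it was at 344, 323, 343 and 389, and in M-BM at 333, 557, 554 and 427. It rose 1.83-fold in Lat (limma adjusted p = 0.000472) and 2.4-fold in M-BM (log2 fold change 1.26, SE 0.17, limma adjusted p = 4.05e-05). DDIT4 was the regulator in which S-BM lay below Pa (271, 258 and 278) with no overlap while Lat and M-BM lay above it.

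SESN2, a leucine sensor that restrains mTORC1, rose 1.84-fold in Lat and 1.88-fold in M-BM, with S-BM libraries between 30.3 and 35.3 and the other brain-derived libraries between 53.7 and 71.7. TRIB3, a pseudokinase that binds ATF4 and dampens it, went from a mean of 346 ± 82.7 (SD, n = 4) in S-BM to 568 ± 77.9 in Lat (1.66-fold) and 521 ± 88.8 in M-BM (1.52-fold). CHAC1, an enzyme that degrades glutathione, rose 1.49-fold in both. ATF3, another bZIP stress factor, rose 1.41-fold in Lat and 1.22-fold in M-BM. The ATF3 call in M-BM (adjusted p = 0.0362) ended when S-BM 1 (0.0704), S-BM 2 (0.082), S-BM 3 (0.0583), M-BM 2 (0.111) or M-BM 3 (0.0627) was left out. It also ended with edgeR (0.0538) and with the replicate number as a block (0.0543).

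CEBPB and CEBPG are partners with which ATF4 forms dimers. CEBPB rose 1.51-fold in Lat and 1.37-fold in M-BM, the M-BM call (adjusted p = 0.0172) ending without S-BM 3 (0.059), without M-BM 2 (0.0546) and without the low-ERBB2 libraries (0.172). CEBPG was not called in either comparison. It stood at 299, 308, 166 and 322 in Lat 1 to 4, and Lat 3 was below all S-BM libraries (178 to 215). Without Lat 3 CEBPG passed in Lat (adjusted p = 0.00579), and without M-BM 3 it passed in M-BM (0.0489). In M-BM it also passed with DESeq2 (0.0386) and with a limma fit of only the groups compared (0.0402). JDP2, a repressor of the same family, and EIF4EBP1, a brake on cap-dependent translation, were not called either. JDP2 ran from 12.4 to 23.1 over the brain-derived libraries and EIF4EBP1 from 42.15 to 85.5. JDP2 passed as lower in M-BM without M-BM 1 (adjusted p = 0.0472).

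NUPR1, a small chromatin protein that ATF4 is known to induce, went against the others. It stood at 51.0, 55.0, 65.2 and 73.7 in S-BM 1 to 4, at 16.2, 15.01, 7.71 and 18.4 in Lat 1 to 4, and at 26.6, 40.9, 25.3 and 29.8 in M-BM 1 to 4. No Lat or M-BM library reached the lowest S-BM library, nor the lowest Pa library (46.1). NUPR1 fell by 2.07 on the log2 scale in Lat (SE 0.22, limma adjusted p = 4.71e-06) and by 0.99 in M-BM (SE 0.22, limma adjusted p = 0.0023).

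Both secreted factors were higher. STC2, a stanniocalcin released by stressed cells, had the largest rise of any member. It was at 80.8, 47.0, 102 and 107 in S-BM, 397, 393, 351 and 479 in Lat, and 351, 249.6, 442 and 316 in M-BM. STC2 rose 4.97-fold in Lat (log2 fold change 2.31, SE 0.23, limma adjusted p = 2.31e-06) and 4.11-fold in M-BM (2.04, SE 0.23, limma adjusted p = 1.21e-05). Pa overlapped S-BM, at 84.6, 71.1 and 62.5.

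GDF15, a stress hormone that acts on appetite centres in the brainstem, varied within S-BM. S-BM 1 to 4 gave 170.3, 127, 73.0 and 81.4, against 145 to 202 in Lat and 135 to 312 in M-BM, so the groups overlapped. It rose 1.56-fold in Lat (log2 fold change 0.64, SE 0.26, limma adjusted p = 0.0493) and 2-fold in M-BM (1.00, SE 0.26, limma adjusted p = 0.00581). Without the low-ERBB2 libraries neither passed (log2 fold change 0.18, adjusted p = 0.579 in Lat; 0.54, 0.1 in M-BM). The Lat call also ended without S-BM 3 (0.152), S-BM 4 (0.133) or any single Lat library (0.0545 to 0.124), with edgeR (0.078), with the replicate block (0.0794) and with either lower filter (0.0504 and 0.0849). FGF21, a hormone of the same response, was close to the counting limit of 0.136 to 0.225 that 3 reads give. It was at 0 in Pa, at 0.228 or less in S-BM, between 0.362 and 0.976 in Lat and between 0.285 and 0.886 in M-BM.

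Serine and one-carbon metabolism makes serine from a glycolytic intermediate and passes its side-chain carbon to folate for nucleotide synthesis. The enzymes did not move together. Of 8 members, 1 was higher and 1 lower in Lat, and 2 were higher and 0 lower in M-BM, with median log2 fold changes of -0.26 and -0.05. This is below the share of all genes called. PSAT1, the aminotransferase in the middle of the serine pathway, stood at 694, 635, 691 and 714 in S-BM. It was at 1102, 1156, 765 and 1309 in Lat and at 1166, 1091, 1090.4 and 1013 in M-BM. All Lat and M-BM libraries were above all S-BM libraries, Lat 3 by the smallest margin. PSAT1 rose 1.56-fold in Lat (log2 fold change 0.64, SE 0.13, limma adjusted p = 0.00101) and 1.59-fold in M-BM (0.67, SE 0.13, limma adjusted p = 0.000907).

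PHGDH, which commits carbon to the pathway ahead of PSAT1, was not called. Its values were 189, 174, 242 and 249.7 in S-BM, 184, 172, 132 and 218 in Lat, and 236, 228, 227 and 189.6 in M-BM. Its 95% interval (log2) was -0.61 to 0.04 in Lat and -0.27 to 0.38 in M-BM, which does not include the rise of PSAT1. PHGDH passed as lower in Lat without Lat 4 (adjusted p = 0.0416). PSPH, the phosphatase that ends the pathway, fell by 0.46 on the log2 scale in Lat (SE 0.12, limma adjusted p = 0.00404), from 108, 100.8, 81.0 and 92.4 in S-BM to 68.6, 69.7, 56.2 and 82.5. Its groups overlapped at Lat 4, and it was not called in M-BM (mean 85.2 ± 5.32, SD, n = 4).

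MTHFD2, the mitochondrial folate dehydrogenase, was at 504, 399, 503 and 472 in S-BM and at 614, 632, 647 and 632 in M-BM, a 1.35-fold rise with no overlap (log2 fold change 0.43, SE 0.12, limma adjusted p = 0.00683). In Lat it was at 580.2, 591, 442 and 655 and missed the threshold (log2 fold change 0.26, limma adjusted p = 0.0652). Without Lat 3 it passed there (adjusted p = 0.00424), as it did with DESeq2 (0.0386) and with quantile normalization (0.0489). SHMT2 and SHMT1, which transfer the carbon from serine to folate in mitochondria and cytosol, were not called. SHMT1 missed narrowly as lower in Lat (log2 fold change -0.37, limma adjusted p = 0.0536) and passed without S-BM 3 (0.0286) or S-BM 4 (0.0372). With both left out it passed in Lat (0.00845) and in M-BM (0.0276). SHMT1 was also called lower in Lat by edgeR (adjusted p = 0.0449) and DESeq2 (0.0333) on all libraries. SHMT2 passed as lower in Lat without S-BM 2 (0.0285). MTHFD1, the cytosolic enzyme of the folate cycle, and MTHFD1L, its mitochondrial relative, were not called, although MTHFD1L passed as lower in both comparisons without the low-ERBB2 libraries (adjusted p = 0.0194 and 0.0415). ALDH1L2, which oxidises mitochondrial formyl-folate, was below the member level, with S-BM between 1.54 and 5.62, Lat between 0.616 and 1.45 and M-BM between 0.345 and 0.523.

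**Figure D3:**
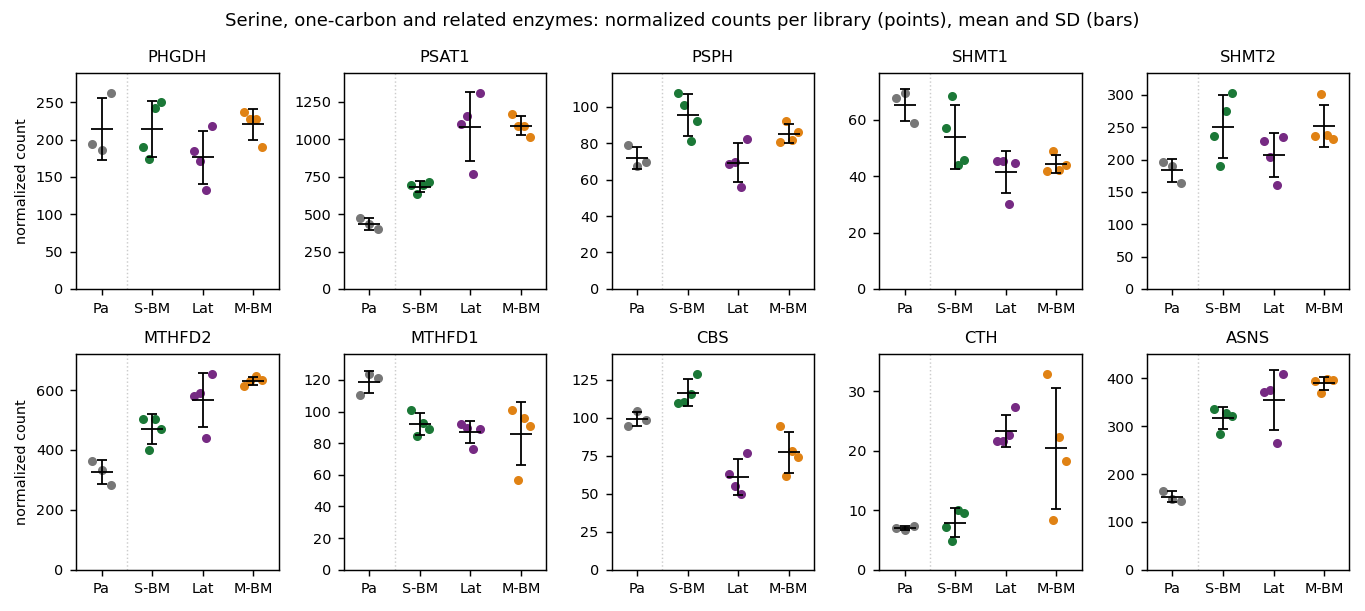
Normalized counts of 10 enzymes of serine, one-carbon, transsulfuration and asparagine metabolism in Pa, S-BM, Lat and M-BM, each point 1 library, bars the mean and SD. PSAT1 and CTH stand higher in Lat and most M-BM libraries than in S-BM, CBS stands lower, and PHGDH and SHMT2 overlap between S-BM, Lat and M-BM; Pa, left of the dotted line, comes from a separately normalized table.

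The enzymes of transsulfuration, which turn homocysteine into cysteine in consecutive steps, moved in opposite directions. CTH, the later step and an ATF4 target, was at 7.18, 4.81, 10.05 and 9.60 in S-BM, 21.6, 21.6, 22.7 and 27.4 in Lat, and 33.0, 8.404, 22.3 and 18.2 in M-BM. Lat was clear of S-BM, while M-BM 2 lay within the S-BM range. CTH rose 2.81-fold in Lat (log2 fold change 1.49, SE 0.31, limma adjusted p = 0.000959) and 2.25-fold in M-BM (1.17, SE 0.31, limma adjusted p = 0.00616). CBS, the earlier step, was at 109.9, 111, 116 and 129 in S-BM, 62.9, 55.2, 49.9 and 76.8 in Lat, and 94.5, 62.0, 78.2 and 74.5 in M-BM, with no overlap. CBS fell by 0.93 on the log2 scale in Lat (SE 0.14, limma adjusted p = 7.5e-05) and by 0.60 in M-BM (SE 0.14, limma adjusted p = 0.00293). A near-identical copy of CBS lies elsewhere on chromosome 21 of this genome build, so its level is uncertain.

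ASNS, asparagine synthetase, is a textbook ATF4 target, yet its difference from S-BM was small. It was at 337, 283, 328 and 322 in S-BM, 371, 376, 266 and 409.9 in Lat, and 394, 369, 398 and 397 in M-BM. It was not called in Lat (log2 fold change 0.15, limma adjusted p = 0.297) and passed narrowly in M-BM (0.30, SE 0.12, limma adjusted p = 0.0489). Lat 3 was below all S-BM libraries, and ASNS passed in Lat without it (adjusted p = 0.012). The M-BM call ended without any single S-BM library (0.0549 to 0.12) or M-BM library (0.0569 to 0.0984), without the low-ERBB2 libraries (0.094), with edgeR (0.0512), without a filter (0.0747) and with the replicate block (0.057). The larger difference lay between Pa (165, 147 and 144) and S-BM, where the mean ratio was 2.08.

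PYCR1 and ALDH18A1 act in proline synthesis. PYCR1 rose 1.35-fold in Lat (91.3, 80.3, 74.2 and 76.2 in S-BM; 107, 98.9, 120.3 and 109 in Lat; limma adjusted p = 0.00474) and 1.28-fold in M-BM (116, 89.0, 119.8 and 91.9; limma adjusted p = 0.0163). Without the low-ERBB2 libraries neither PYCR1 call held (adjusted p = 0.0586 and 0.138), and the M-BM call also ended without M-BM 1 (0.0504) or M-BM 3 (0.0598). ALDH18A1 was not called, with S-BM at 99.4 to 112, Lat at 113 to 122 and M-BM at 105 to 125. HMGCLL1, a lyase related to ketone body formation, was at 0 in 14 libraries and at 0.0518, 1 read, in Lat 3.

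Aminoacyl-tRNA synthetases load amino acids onto tRNA, and XPOT exports tRNA from the nucleus. Of these 13 members, 8 were higher and 0 lower in Lat, and 10 were higher and 0 lower in M-BM, with median log2 fold changes of 0.33 and 0.44. Among all genes tested, 30.2% were higher and 29.4% lower in Lat, and 26.9% and 25.8% in M-BM. EPRS, which charges glutamate and proline tRNA, was at 649, 610.1, 493 and 519 in S-BM, 960.0, 1009, 852 and 936 in Lat, and 919, 948, 1108 and 1041 in M-BM. It rose 1.66-fold in Lat (log2 fold change 0.73, SE 0.11, limma adjusted p = 5.22e-05) and 1.77-fold in M-BM (0.83, SE 0.11, limma adjusted p = 3.34e-05). IARS, for isoleucine, rose 1.61-fold in Lat (limma adjusted p = 0.00077) and 1.63-fold in M-BM (0.000881), from 1004, 884, 715 and 702 in S-BM to 1382, 1424, 1017 and 1498 in Lat and 1372, 1442, 1265 and 1246 in M-BM. In both genes the Lat and M-BM libraries lay above all S-BM libraries, for IARS with Lat 3 just above S-BM 1.

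LARS, for leucine, was at 194 to 233 in S-BM, 288 to 320.2 in Lat (1.43-fold, limma adjusted p = 0.00014) and 267 to 306 in M-BM (1.36-fold, limma adjusted p = 0.000641). NARS, for asparagine, was at 285 to 329 in S-BM, 409 to 481 in Lat (1.36-fold) and 393 to 599 in M-BM (1.53-fold, limma adjusted p = 0.00123). CARS, AARS, MARS and XPOT rose by 1.26- to 1.35-fold in Lat and by 1.34- to 1.44-fold in M-BM. SARS and YARS passed in M-BM (1.37- and 1.28-fold) and not in Lat, and the difference between Lat and M-BM was not called for either. GARS, TARS and WARS passed in neither, although their names stand on the same list of ATF4 targets and GARS and TARS carry the core shown above. GARS was at 509 to 605 in S-BM, 357 to 545 in Lat and 408 to 561 in M-BM. It passed as lower in Lat without Lat 4 (adjusted p = 0.0172) and with DESeq2 (0.0451).

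Some of these calls rested on single libraries. In Lat, XPOT (adjusted p = 0.0223) lost its call without S-BM 2 (0.0569), S-BM 4 (0.0562), Lat 1 (0.0581), Lat 2 (0.0691) or Lat 4 (0.0556), and MARS (0.0166) lost it without Lat 4 (0.0581). In M-BM, SARS (0.0219) lost its call without M-BM 1 (0.0556) or M-BM 3 (0.0501). Without the low-ERBB2 libraries AARS passed in neither comparison (0.0977 and 0.0677), XPOT did not pass in Lat (0.0784) and SARS passed in Lat (0.0147). EPRS, IARS, LARS, NARS and CARS kept their calls in each of these fits.

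The M-BM cells were also compared with the Lat cells. None of the 43 members was called (limma), where 0.145% of all genes tested were. Unadjusted p (limma) was under 0.05 for 5 members, and the share of all genes at that unadjusted level was not determined. edgeR called 0 members, with 4 at an unadjusted p under 0.05, and DESeq2 called 1, also with 4. That member was NUPR1, 2.12-fold higher in M-BM than in Lat with no overlap (log2 fold change 1.08, SE 0.22, limma adjusted p = 0.0748; DESeq2 adjusted p = 0.00106). The groups did not overlap for NUPR1 and SARS, 2 of 43, against 7.3% of all genes, M-BM being higher in both (3.85% of all genes, with 3.45% lower). The log2 fold change of M-BM against Lat was -0.08 for ATF4 (95% interval -0.27 to 0.11), -0.18 for DDIT3 (-0.53 to 0.17) and 0.03 for PPP1R15A (-0.31 to 0.36).

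The levels were then set beside Pa, with no test. The median ratio of the 12 brain-derived libraries to Pa was 1.006 over 8841 genes, so the tables are on nearly the same scale over all genes. For a single gene, a difference between Pa and the other groups cannot be told apart from one between these separately normalized sets. Pa had the lowest of the 4 group means for 34 of 43 members, and for 30 of these S-BM came next. The share of all genes with this order of means was not determined. S-BM libraries lay above all Pa libraries for 25 members, overlapped them for 15 (both secreted factors among these) and lay below for 3 (EIF2AK3, DDIT4 and MTHFD1), where 22.7% of all genes tested lay above and 19.7% below. The corresponding counts were 31 above and 6 below for Lat (36.9% and 34.6% of all genes) and 33 above and 5 below for M-BM (35% and 31.6%). A step from Pa to S-BM and again from S-BM to both Lat and M-BM, with no overlap at either step, was seen in 10 members: PPP1R15A, ATF4, ATF3, DDIT3, CHAC1, PSAT1, CARS, IARS, MARS and NARS. That is 23.3% of members, where 6.04% of all genes tested showed such a step.

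The ratio of means to Pa in Lat and M-BM was largest for PPP1R15A, which stood at 1.96, 6.3 and 6.46 in S-BM, Lat and M-BM. STC2 reached 1.16, 5.57 and 4.67, and DDIT3 1.39, 4.83 and 4.2. EIF2AK3, MTHFD1, SHMT1 and JDP2 had their highest mean in Pa. MTHFD1 stood at 111 to 124 in Pa against 84.4 to 100.9 in S-BM, 76.6 to 92.4 in Lat and 56.6 to 100.8 in M-BM.

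**Figure D4:**
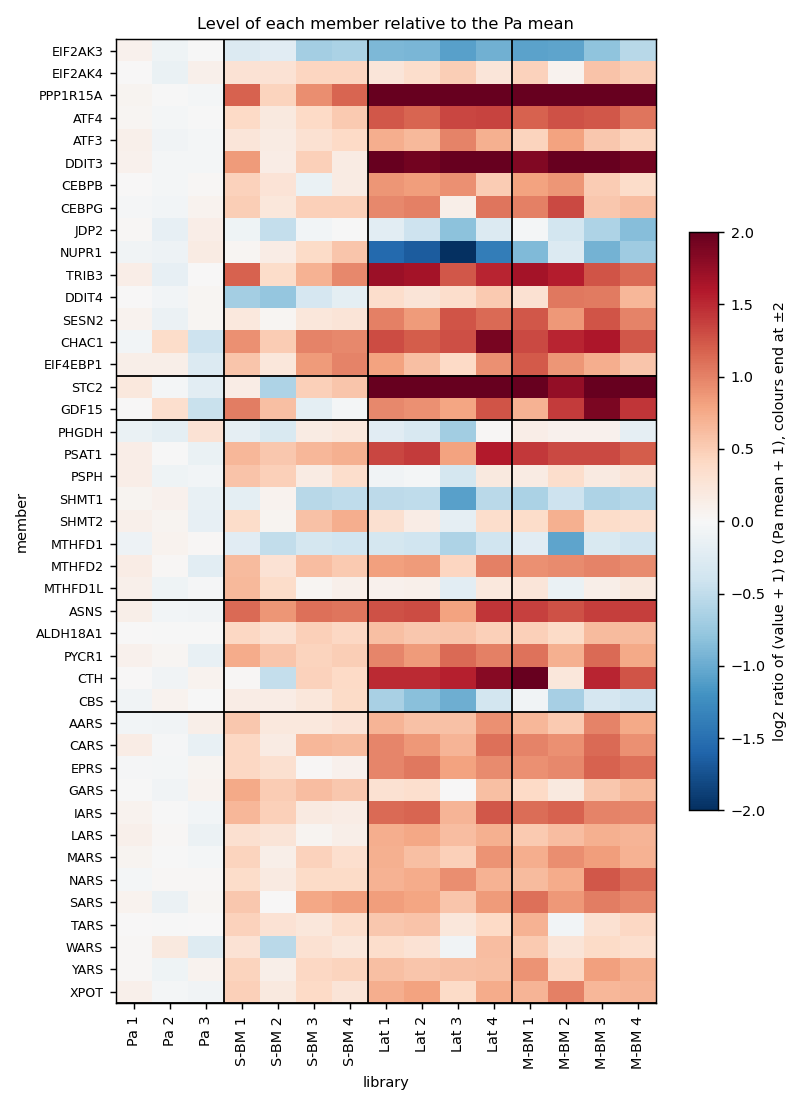
Level of each of the 43 members in each of the 15 libraries as the log2 ratio of (value + 1) to (Pa mean + 1), with colours ending at ±2, black lines between groups and between roles. Red deepens from Pa through S-BM to Lat and M-BM for most stress regulators and synthetases, NUPR1 and CBS turn blue in Lat, and Lat 3 and S-BM 2 are paler than the other libraries of their groups.

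Libraries of a group were not alike in these genes. S-BM 2 had the lowest S-BM value for 30 of 43 members, where it had the lowest for 33.4% of all genes tested. Lat 3 had the lowest Lat value for 29 of 43, where it had the lowest for 41% of all genes. Relative to its group mean, the median member deviated by -0.14 (log2) in S-BM 2 and by -0.20 in Lat 3, against 0 and -0.02 for all genes. Lat 4 had the highest Lat value for 25 of 43 members, where it had the highest for 27.7% of all genes. Lat 3 was nevertheless the highest Lat library for DDIT3, ATF3, CEBPB, SESN2, EIF2AK4, PYCR1 and NARS.

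The other genes of the pathway, from lists of 104 entries of which 98 were tested, are given by count. Each count stands against 30.2% of all genes tested higher and 29.4% lower in Lat, and 26.9% and 25.8% in M-BM. Of 15 genes for eIF2, its exchange factor eIF2B and further regulators of eIF2 phosphorylation, 9 were higher and 3 lower in Lat, and 7 were higher and 1 lower in M-BM. The genes of the 3 eIF2 subunits rose: EIF2S1 (log2 fold change 0.60 in Lat, 0.54 in M-BM), EIF2S2 (1.22, 1.12) and EIF2S3 (0.91, 0.85). PPP1R15B, the constitutive partner of the eIF2 phosphatase, also rose (0.78, 0.58), as did EIF2B2 of the exchange factor (0.69, 0.64). GCN1L1, which activates the GCN2 kinase, fell (-0.42, -0.28). EIF2AK2, the kinase that senses viral RNA, passed narrowly as higher in Lat (0.31, limma adjusted p = 0.0488) and not in M-BM (0.29, 0.0693). EIF2AK1, the haem-sensing kinase (-0.24), and OMA1, a mitochondrial protease that signals to it (-0.32), were called lower in Lat and not in M-BM. KIAA0141, on the same list, went the other way in Lat (0.32, limma adjusted p = 0.0375) and was not called in M-BM (0.20, 0.182). The difference between M-BM and Lat was not called for any of these genes.

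Of 11 cytosolic synthetases and scaffold proteins outside the members, 7 were higher and 2 lower in Lat, and 8 were higher and 2 lower in M-BM. FARSB, a phenylalanine synthetase subunit, rose by 1.22 (log2) in Lat and 1.12 in M-BM, and the scaffold proteins EEF1E1 and AIMP1 by 0.91 and 0.88 in Lat. QARS, for glutamine, went from 169 ± 18.4 (SD, n = 4) in S-BM to 61.9 ± 7.29 in Lat and 76.9 ± 8.96 in M-BM (log2 fold change -1.43 and -1.13, limma adjusted p = 5.78e-07 and 6.43e-06), and VARS, for valine, fell by 0.59 and 0.33. Among 17 mitochondrial synthetases, 8 were higher and 5 lower in Lat, and 8 were higher and 2 lower in M-BM.

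Few further one-carbon genes passed, with 2 of the 13 tested (of 19 listed) higher and 3 lower in Lat and 1 higher and 3 lower in M-BM. SLC25A32, the mitochondrial folate carrier, rose by 0.62 (log2) in Lat and 0.54 in M-BM. Thymidylate synthase TYMS (-0.82, -0.86), the folate-retaining FPGS (-0.73, -0.60) and the folate importer SLC19A1 (-0.86, -0.64) fell.

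Of 22 further genes known as ATF4 targets, 11 were higher and 2 lower in each comparison. Over both directions the share called was near that of all genes tested (59.7% in Lat, 52.7% in M-BM), and the calls lay mainly on the higher side. FAM129A, a stress-induced regulator of translation, went from 0.701 ± 0.59 in S-BM to 53.6 ± 13.8 in Lat and 80.7 ± 58.8 in M-BM (SD, n = 4), where Pa was at 25.8 ± 10.6 (n = 3). The cystine importer SLC7A11 rose by 1.86 (log2) in Lat and 2.16 in M-BM, GADD45A, a growth arrest gene, by 1.32 and 1.11, and the aminotransferase GPT2 by 1.04 and 1.28. VLDLR, a lipoprotein receptor (-1.26, -0.58), and KLHL24, a ubiquitin ligase adaptor (-1.10, -0.79), fell.

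Genes of the other branches of the unfolded protein response, which run through ATF6 and XBP1 and raise chaperones, did not share a direction. Of 20, 5 were higher and 8 lower in Lat, and 6 were higher and 5 lower in M-BM, with median log2 fold changes of -0.05 and 0.03. Over both directions, 59.7% of all genes tested were called in Lat and 52.7% in M-BM. CRELD2 (1.30, 1.16), the sensor ERN1 (1.15, 1.03) and the chaperone HSPA5 (0.66, 0.60) rose. Calreticulin CALR (-0.96, -0.78), SDF2L1 (-0.92, -0.63) and the disulfide isomerase PDIA4 (-0.91, -0.64) fell.

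**Figure D5:**
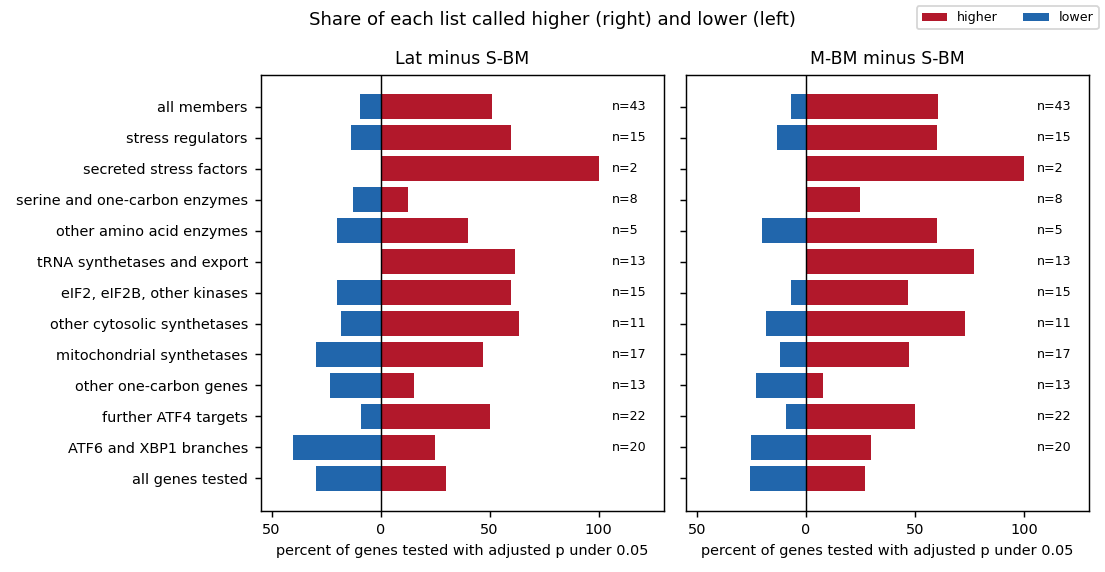
Percent of the genes tested in each role or list with an adjusted p under 0.05, higher (red, right) or lower (blue, left), in Lat against S-BM and M-BM against S-BM, with the number tested at the right. The bottom bar gives all 9646 genes tested, 30.2% higher and 29.4% lower in Lat; stress regulators, synthetases and further ATF4 targets lean to the right, serine and one-carbon enzymes have few calls, and the ATF6 and XBP1 branches have calls on both sides.

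Members with and without the promoter core are given side by side, with no test. Of the 13 with a match, 7 were higher and 0 lower in Lat and 8 were higher and 0 lower in M-BM. Of the 23 with a window and no match, 13 were higher and 2 lower in Lat and 15 were higher and 2 lower in M-BM. Among all genes tested, 30.2% were higher and 29.4% lower in Lat, and 26.9% and 25.8% in M-BM. STC2, DDIT3, PPP1R15A and CTH, the members with the largest rises in Lat, had no match within their windows, and NUPR1 had no window.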

How the data were processed

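Per the labels' protocols, cells in culture gave total RNA (RNeasy), sequenced as TruSeq RNA v2 libraries. Bowtie 0.12.2 and GRCh38 are named in the submitters' processing notes; how reads were counted and scaled, and with which annotation, is not given in the sources used here. Values are deposited as a signal per gene: normalized counts, which the authors brought to near-equal sums (963140 to 1026276). Every value (100% in each library, within 0.05 reads) was a whole multiple of a step of its library, so reads were recovered. The 3 brain-derived groups shared a fit on log2(value + 1) with limma 3.58.1 in R 4.3.3: 12 libraries, 3 group means, 9 residual degrees of freedom, variance trend, two-sided tests, Benjamini-Hochberg adjustment. A gene was tested at a value of at least 10 in 4 libraries. Folds are on that scale. edgeR 4.0.16 and DESeq2 1.42.0 on the recovered reads were alternatives, and the limma and edgeR fits were tested on simulated data. Floors and noise ratios cover counting error only.

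The members, gene lists, tests and the motif were chosen with earlier results of these data known. Values by library are given for ATF4, EIF2AK3, EIF2AK4, PPP1R15A and DDIT3, and for up to 3 called members per role, comparison and direction. A few more (PHGDH, CEBPG and others) were added after their values were seen, as were the Lat values of MTHFD2 and ASNS. Other lists name up to 3 called genes per comparison and direction, and EIF2S1, EIF2AK2 and KIAA0141 were named in addition. The labels number the libraries of each group alike. Deviations of same-numbered libraries correlated at -0.272 to 0.319 (4 of 12 pairs above 0.1). Those of differently numbered libraries correlated at -0.305 to 0.322 (7 of 36 above 0.1), and 5 libraries correlated best with one of their own number. Whether the numbers pair libraries cannot be told from these values, and the main fit does not use them.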

Additional observations from a re-analysis of the deposited data

Results flagged for a closer look

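In each brain-derived group, a member was singled out when the gap between its extreme library and the next, as a share of the range of the 4 libraries, exceeded Dixon's 95% critical value. This happened in 10 of 129 cases (7.75%). The critical value is set for about 1 in 20 when values are independent and normal, which was not checked. The share of all genes tested that the same rule would flag was not determined, so no excess in the members is read from this count. S-BM 2 was low for CEBPG (178, others 212 to 215), NARS (285, others 325 to 329), WARS (169, others 290.4 to 305) and YARS (221, others 273 to 279). Lat 3 was low for CEBPG (166, others 299 to 322) and SHMT1 (30.2, others 44.6 to 45.6), and Lat 4 was high for CHAC1 (44.9, others 27.5 to 29.4). M-BM 2 was high for SHMT2 (301, others 232 to 238) and XPOT (806, others 634 to 643), and low for ASNS (369, others 394 to 398).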

How the results depend on the processing

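The count of called members stayed between 24 and 29 of 43 in Lat against S-BM (main value 26) and between 25 and 30 in M-BM against S-BM (29) over other pseudocounts, filters, scalings, tools and left-out libraries. Leaving out 1 library gave 24 to 28 and 25 to 28. In the main fit 59.7% and 52.7% of all genes tested were called. The shares of all genes called were not determined for any alternative fit of this section, so these counts show no excess of members. In M-BM against Lat every alternative gave 0 except DESeq2, which called 1. The fit with the replicate number as a block called 27, 27 and 0 members; besides the calls named above it added SHMT1 (adjusted p = 0.0209) and YARS (0.0477) in Lat. Of 39 pairs of gene and comparison, 32 were called, 26 of them in every alternative. These pairs were ATF4, EIF2AK3, EIF2AK4, PPP1R15A, DDIT3 and the largest called changes per role. Other calls that ended in some fits, such as ATF3 and SARS in M-BM and XPOT in Lat, are outside this count. The sign changed only in values that were not called: EIF2AK4 in Lat without S-BM 3 and S-BM 4 (0.039) and with the close pairs averaged (0.005), and, with 1 library left out, EIF2AK4 in M-BM (-0.017 to 0.146) and, for M-BM against Lat, EIF2AK3 (-0.01 to 0.16) and PPP1R15A (-0.051 to 0.137; quantile normalization gave -0.009). The last fits, with both low-ERBB2 S-BM libraries omitted or each close pair averaged, were chosen after seeing the data. Averaging the pairs called 24 and 25 members: in Lat it lost AARS (adjusted p = 0.0503), XPOT (0.0984) and GDF15 (0.186) and added SHMT1 (0.0357), and in M-BM it lost ASNS (0.0873), ATF3 (0.0567), CEBPB (0.0577) and PYCR1 (0.056).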
